A study of Homo sapiens with 5 samples.

Results

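MCF12A is an immortalised, non-tumorigenic human breast epithelial cell line. Cells of this line were exposed to ethanol for 4 weeks and grown in soft agar, a clone was isolated from the agar, and the clone was cultured as a monolayer. Its gene expression is compared here with that of its own control. The members are all genes measured on that pair of arrays: the array titled as soft agar selected ethanol minus the array titled as its control, as a log2 difference. They were found by taking probes with exactly 1 gene symbol, keeping the probe with the brightest mean for each gene, and asking that the brighter array read at or above the table median of 92.0 (the floor). Of 18395 genes with such a probe, 12256 reached the floor and are the members. The pair makes up 2 of the 5 arrays of the study, with 1 array for each condition.

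Both cultures were grown in DMEM/F12 with horse serum, epidermal growth factor, hydrocortisone, insulin and cholera toxin, and both are described as monolayers. The clone carries the labels 2.5% ethanol, 4 weeks, and selected on soft agar, while the description of the whole study gives the same exposure as 2.5 mM, so the dose is uncertain. A protocol text adds that the clone was grown on plates for further ethanol exposure before RNA was taken. Its control is labelled as unexposed, yet also as selected on soft agar, and whether it passed through agar could not be settled. The other 3 arrays, normalised in a table of their own, hold an untreated control, cells kept 4 weeks in 2.5% ethanol and cells kept 4 weeks in 1% acetaldehyde. Because the clone is 1 isolate read on 1 array, the effects of ethanol, of the agar and of the isolate itself cannot be told apart. No spread between replicates exists, so no test was possible, and "higher" or "lower" below means at least 2-fold (a log2 difference of 1) between these arrays, and "level" means within 2-fold. Pairs of values in brackets are intensities, first in the control and then in the clone.

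Epithelial cells hold each other through desmosomes, which anchor keratin filaments, through adherens junctions built on cadherins, and through tight junctions that seal the sheet. They also rest on a laminin layer gripped by integrins, and most of them die when that grip is lost, a process called anoikis. Growth in soft agar selects cells that divide without such attachment. A mesenchymal programme, in which junction genes are low and matrix, contractile and transforming growth factor genes are high, has often been described in breast cells with that ability.

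The clone and its control differed at a large share of genes. Of the 12256 genes, 1801 (14.7%) were higher and 715 (5.83%) were lower in the clone, or 20.5% in either direction. These shares of all genes, 14.7% and 5.83%, are the background for every list count in the clone below. At 4-fold the counts were 412 (3.36%) and 200 (1.63%), or 4.99% in all. In the ethanol array against its untreated control, 2.63% of 11260 genes were higher and 2.44% lower, or 5.07% in all. In the acetaldehyde array, 1.03% of 11190 genes were higher and 0.0536% lower, or 1.08% in all, against the same untreated array. The median difference over the members was -0.02, so the centre of the distribution lay near 0. Of the genes higher in the clone, 675 (37.5%) were under the floor in the control, and 226 (31.6%) of the lower ones were under it in the clone. For such genes the fold is given below against the floor and written "at least". With the dim value raised to the floor in this way, 1472 genes were still higher and 611 still lower. At the thresholds, KRABD2 (74.3 in the control and 92.0 in the clone) was just outside the floor and SERPINF2 (92.1 in the control and 75.7 in the clone) just inside it. USP42 at 0.9987 and PTAR1 at 1.0013 stood on either side of the upper limit, and BCL7A at -0.9994 and NOP10 at -1.0012 on either side of the lower.

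**Figure D1:**
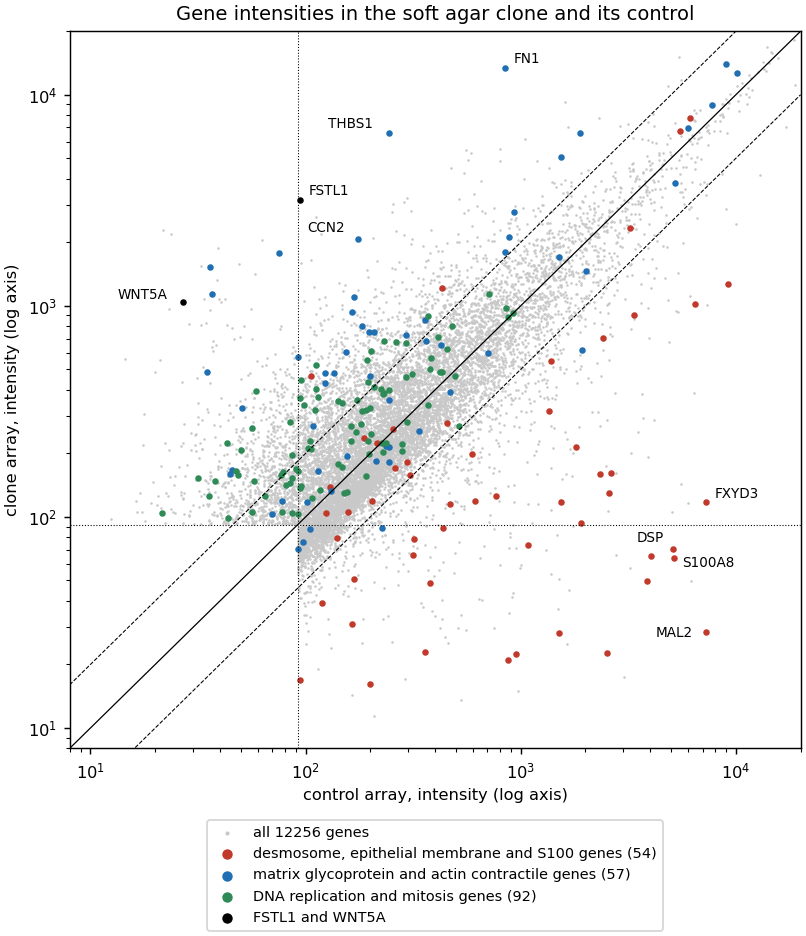
Intensity of each of the 12256 genes in the control array (x, log axis) and the clone array (y, log axis), 1 point per gene, with equal intensity as a solid line, 2-fold as dashed lines and the floor of 92.0 as dotted lines. Desmosome, epithelial membrane and S100 genes (red) lie mostly below the lines, down to MAL2 at 28.5 in the clone, and matrix and contractile genes (blue) reach above them, up to FN1 at 13374; replication and mitosis genes are green, and FSTL1 and WNT5A black.

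The imbalance toward genes higher in the clone moved with the length of the gene. Among 11668 protein-coding genes sorted by genomic span into 5 groups of equal size (the distance from start to end in the RefSeq table), the share higher in the clone was 5.27% in the shortest group and 9.64%, 14.6%, 21.0% and 25.4% in those that followed. The share lower in the clone was 6.51%, 4.88%, 6.22%, 5.14% and 5.53%, with no such order. From the shortest to the longest group the median difference went from -0.28 to 0.35, and Spearman's rho between span and difference was 0.27 over these genes, which share 1 pair of arrays. In ethanol against untreated the share higher was 1.30% in the shortest group and 5.83% in the longest, with a rho of -0.01 over 10132 genes. Short structural RNAs stood on the other side: of 95 small nucleolar RNAs past the floor, 35 (36.8%) were lower in the clone and 1 was higher, with a median of -0.74. The H/ACA class named SNORA had 22 of 37 lower and a median of -1.06. These measures moved with the differences described below, and their part in them was not tested. For some lists the median after subtraction of the median of each gene's span group is given beside the median. For desmosome genes, which are long, it was -2.94 against -2.86, and for stratified keratins and immediate early genes, which are short, -1.30 against -1.46 and -0.86 against -0.87.

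**Figure D2:**
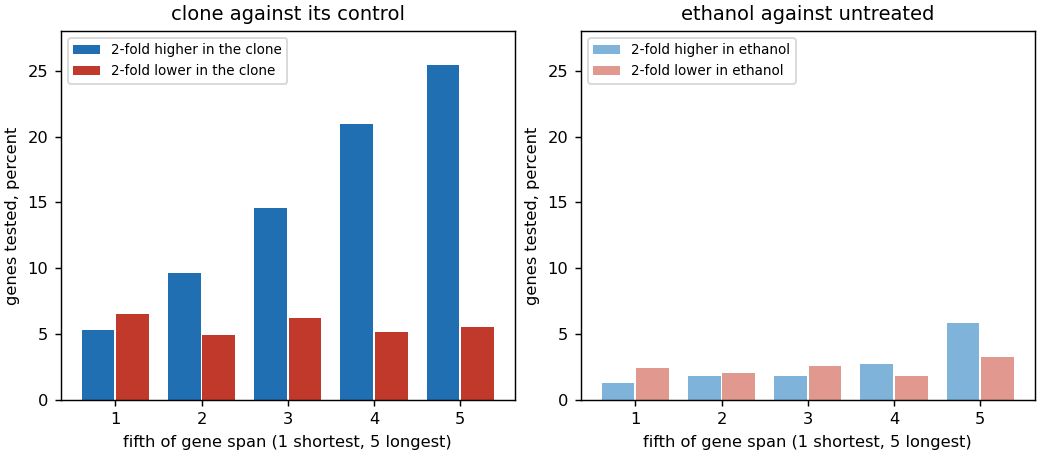
Percent of protein-coding genes at least 2-fold higher (blue) or lower (red) in each of 5 groups by genomic span, for the clone against its control (left, 2333 or 2334 genes per group) and ethanol against untreated (right); both axes start at 0. In the clone the higher share goes from 5.27% to 25.4%, while the lower share stays between 4.88% and 6.51%.

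Desmosome genes were the junction group with the lowest median in the clone, -2.86. Of 14 listed and measured genes, 11 reached the floor, 8 were lower and none was higher, and their summed intensity was 32626 in the control and 3902 in the clone. DSP, which encodes desmoplakin, the plaque protein that binds keratin filaments, read 5079 in the control and 70.4 in the clone, at least 55.2-fold lower. The desmosomal cadherin genes DSG3 (3845 to 49.7), DSC3 (2514 to 22.5) and DSC2 (952 to 22.3) were all under the floor in the clone, which makes them at least 41.8-fold, at least 27.3-fold and at least 10.3-fold lower. DSG2, the cadherin found in simple epithelia, was lower by less, with 1383 in the control and 546 in the clone. Among plaque genes, PKP1 (2338 to 159) and JUP, which encodes plakoglobin (6449 to 1023), were lower, while PKP2 and PKP4 lay near 0 at 0.05 and 0.03. PERP, a tetraspan desmosome protein, was lower too but stayed bright, with 9214 in the control and 1266 in the clone. In ethanol the same list had 8 of 11 lower and a median of -2.02, and in acetaldehyde none of 11, with a median of -0.13. Of all genes 2.44% were lower in ethanol and 0.0536% in acetaldehyde.

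Among cadherins and nectins of adherens junctions the clone showed an exchange of members. CDH1, the gene of E-cadherin, read 919.8 in the control and 43.6 in the clone, under the floor, and CDH3, that of P-cadherin, read 2773 in the control and 66.3 in the clone, at least 30.1-fold lower. CDH2, the gene of N-cadherin, was higher at 45.4 in the control and 223 in the clone, at least 2.42-fold against the floor. NECTIN4 (484 to 105) and NECTIN1 (329.6 to 71.6) were lower, and NECTIN3 (112 to 422) was higher. The catenins that tie cadherins to actin moved little: CTNNA1 differed by -0.06 and CTNNB1 by 0.70. Over the 13 genes past the floor, 4 were higher and 4 lower.

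Tight junction genes were lower in 10 of 20 cases and higher in 1, with a median of -0.96. CLDN1, a claudin that seals the space between cells, read 4181 in the control and 288 in the clone, 14.5-fold lower, and CLDN7 read 2150.0 in the control and 316 in the clone. CLDN4, another claudin, read 791 in the control and 165 in the clone. In ethanol CLDN4 differed by -0.18 and CLDN1 by -3.53. MARVELD2, the tricellulin gene for corners where 3 cells meet, was under the floor in the clone (207 to 49.4). TJP1, the gene of the scaffold ZO-1, was the only listed gene that was higher, with 197 in the control and 513 in the clone. Gap junction genes had none lower and PANX1 higher (151 to 349) among 5 past the floor, with GJA1, the connexin 43 gene, at 0.31.

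Epithelial membrane and apical genes held the gene furthest below its control of all 12256. This was MAL2, a transport protein of the apical membrane, which read 7279 in the control and 28.5 in the clone, at least 79.1-fold lower. FXYD3, a regulator of the sodium pump, read 7245 in the control and 118 in the clone, which is above the floor on both sides and 61.6-fold lower. Of 29 such genes past the floor, 21 were lower and only PROS1, the protein S gene, was higher (431 to 1213), with a list median of -2.09. The membrane proteases and their inhibitors were low together: PRSS8 read 1899.8 in the control and 93.3 in the clone, its inhibitor gene SPINT1 2582 in the control and 130.2 in the clone, and ST14, the matriptase gene, 319 in the control and 78.9 in the clone. EPCAM, the epithelial adhesion gene used to sort such cells, was under the floor in the clone (378 to 48.7). RAB25, a trafficking GTPase of epithelial cells, went from 360.4 to 22.98, and UPK1B, a uroplakin gene, from 1505 to 28.3. SCNN1A, a subunit gene of the epithelial sodium channel, was little changed at -0.46, while its partner genes SCNN1B (1077 to 115) and SCNN1G (889 to 80.6), added after their values were seen, were lower.

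Transcription factors of epithelial identity followed the same direction, with 14 of 20 lower, none higher and a median of -1.63. TFAP2A, an AP-2 factor of the epidermis and breast, read 1506 in the control and 50.5 in the clone, at least 16.4-fold lower. KLF5, which keeps basal epithelia dividing, stayed above the floor with 2287 in the control and 316 in the clone, 7.25-fold lower. EHF (924 to 91.1) and ELF3 (495 to 119), both ETS factors of epithelia, and ZNF750, a regulator of epidermal differentiation (527 to 34.1), were lower as well. TFAP2C, another AP-2 factor, read 494 in the control and 67.3 in the clone here, and exactly the same value in the ethanol and untreated arrays of the other table. ESRP2, the splicing regulator, read 393 in the control and 218 in the clone and did not reach 2-fold, nor did GATA3 at -0.55. TRIM29, a basal epithelial gene outside these lists and among the 20 furthest below, read 5040.1 in the control and 105 in the clone, 47.8-fold lower.

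The E-box CACCTG is the site that repressors of the ZEB and SNAI families are known to bind in epithelial promoters. Within 250 bases upstream of the start it was found, on either strand, in 17.5% of 27305 RefSeq promoters, in 16.5% of 9735 of genes past the floor, in 23.98% of 517 promoters of genes lower in the clone and in 13.9% of 1485 promoters of genes higher. Of the epithelial membrane genes that were lower, 7 of 13 with a promoter held it, as did 3 of 8 desmosome genes and 3 of 9 epithelial factors, but so did 5 of 7 folate and nucleotide genes that were higher. The promoters of DSP and RAB25 are shown as members with the site, picked for holding it, on the plus strand of GRCh38.p14 at chr6:7541421-7541670 and chr1:156060910-156061159. The E-box is in capitals, as CACCTG or, where it lies on the other strand, as CAGGTG.
DSP: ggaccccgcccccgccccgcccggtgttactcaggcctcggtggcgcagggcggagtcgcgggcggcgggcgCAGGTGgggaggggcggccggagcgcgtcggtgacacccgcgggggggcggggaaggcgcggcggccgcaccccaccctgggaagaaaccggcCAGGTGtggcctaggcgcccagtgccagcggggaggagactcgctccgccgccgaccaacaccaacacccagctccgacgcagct
RAB25: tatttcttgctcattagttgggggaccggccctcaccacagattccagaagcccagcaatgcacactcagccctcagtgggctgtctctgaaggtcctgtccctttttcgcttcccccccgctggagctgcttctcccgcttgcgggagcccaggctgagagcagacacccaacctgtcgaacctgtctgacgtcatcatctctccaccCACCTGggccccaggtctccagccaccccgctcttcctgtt
DSP held 2 matches, from -178 to -173 and from -85 to -80 relative to the start, and RAB25 held 1, from -41 to -36. A match is only a description of these letters.

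Keratins of basal and stratified epithelium were lower in 8 of 11 cases and higher in none, with a median of -1.46. KRT10, a keratin of differentiating layers, read 6187 in the control and 49.7 in the clone, at least 67.2-fold lower, and KRT16, of activated epidermis, read 5999 in the control and 117 in the clone, 51.3-fold lower. The basal pair separated in size: KRT14 read 3267 in the control and 202 in the clone, 16.2-fold lower, and KRT5 read 12956 in the control and 4159 in the clone, 3.11-fold lower, so KRT5 was still a bright gene in the clone. Keratins of simple epithelium were close to level, with KRT8 at 3765 in the control and 3921 in the clone, KRT18 at 1380.3 in the control and 1589 in the clone and KRT19 differing by -0.51. VIM, the gene of the mesenchymal filament vimentin, was higher, at 2884 in the control and 7076 in the clone. Of 10 basal and myoepithelial breast markers past the floor, a check of the epithelial label of this line, 5 were lower (KRT5, KRT14, CDH3, ITGB4 and EGFR) and 2 higher (ACTA2 and MME), and 9 of the 10 reached the floor in the control and 8 in the clone, where CDH3 was under it.

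Genes of the cornified envelope, the hardened coat of stratified epithelium, were lower in 10 of 25 cases and higher in none. SPRR1B, a small proline-rich envelope precursor, read 1305 in the control and 69.9 in the clone, at least 14.2-fold lower, and SBSN, the suprabasin gene, read 1132 in the control and 94.03 in the clone. The kallikrein protease genes KLK8 (1202 to 115), KLK7 (294 to 118) and KLK10 (441 to 194) were lower. Among clade B serpins, SERPINB3 (971 to 15.0), SERPINB13 (443 to 27.0) and SERPINB5, the maspin gene (1120.3 to 316), were lower, and SERPINB1, an inhibitor of neutrophil elastase, was higher (130.02 to 386). These were the 4 serpin genes past the floor. AQP3, a water and glycerol channel gene among the 20 furthest below, read 5567 in the control and 143 in the clone, 38.9-fold lower, and A2ML1, a protease inhibitor gene of the epidermis, read 3235 in the control and 56.98 in the clone.

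S100 genes included lower and level members. Of 14 past the floor, 8 read lower and 1 higher (median -2.02). These genes are short, and their median centred by span was -1.74. It was -1.24 with dim values raised to the floor and -0.71 over all measured members with no floor. S100A8, which with S100A9 forms calprotectin, read 5137 in the control and 64.2 in the clone, at least 55.8-fold lower, and S100A9 read 1539.8 in the control and 117 in the clone. S100A14 (4039 to 65.3) and S100P (2635 to 161) were lower by at least 43.9-fold and 16.3-fold. S100A10 and S100A11, both binding partners of annexins, stayed among the brightest genes, with 6111 in the control and 7799 in the clone for the first and 5477 in the control and 6749 in the clone for the second. S100A4, linked to motility and used as a fibroblast marker, was the only higher gene, at 106 in the control and 464 in the clone.

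Genes of cell attachment to matrix included lower integrin and laminin chains of the hemidesmosome and other laminin and collagen chains that were higher. ITGA6 and ITGB4 encode the integrin pair of the hemidesmosome: ITGA6 read 1607 in the control and 254 in the clone, 6.33-fold lower, and ITGB4 read 2374 in the control and 464 in the clone, 5.12-fold lower. LAMB3, a chain of laminin-332 that this integrin binds, read 803 in the control and 58.9 in the clone, at least 8.73-fold lower. LAMA4, a laminin chain of vessels and mesenchyme, read 32.5 in the control and 814 in the clone, at least 8.85-fold higher, and LAMC1, the common gamma chain, read 1164 in the control and 2662 in the clone. The basement membrane collagens COL4A1 (106 to 282) and COL4A2 (170.3 to 417) were higher. Over 19 genes of this list 6 were higher and 3 lower. Among 11 integrin genes, ITGB8 (205 to 713), ITGA3 (1135 to 2849) and ITGAV (529.8 to 1289.6) were higher and ITGB6, an epithelial partner of ITGAV, was lower (184 to 32.9).

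Matrix glycoprotein and proteoglycan genes were higher in 17 of 34 cases and lower in 2, with a median of 1.10, or 0.41 over all measured members with no floor. FN1, the fibronectin gene, was above the floor in both arrays, with 844 in the control and 13374 in the clone, 15.8-fold higher. THBS1, the gene of thrombospondin-1, which releases TGF-beta from its latent form, read 244 in the control and 6558 in the clone, 26.9-fold higher. VCAN, the versican proteoglycan gene (75.6 to 1774), SRGN, that of serglycin (35.8 to 1525), and HAS2, a hyaluronan synthase gene (36.7 to 1138), were at least 19.3-fold, at least 16.6-fold and at least 12.4-fold higher, each from below the floor. CCN2, the connective tissue growth factor gene, read 175 in the control and 2078 in the clone, 11.9-fold higher, and its relative CCN1 read 198 in the control and 749.6 in the clone. SDC1, the syndecan of epithelia, and HAS3 were the 2 lower genes, at 1929 to 620.0 and 226 to 88.5. TNC, the tenascin-C gene, lay at -0.13 and the hyaluronan receptor gene CD44 at -0.46. In ethanol 15 of 29 genes of this list were higher, and in acetaldehyde 12 of 28, against 2.63% and 1.03% of all genes there.

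Of 14 collagen genes outside the basement membrane 3 (21.4%) were higher and none lower, against 14.7% and 5.83% of all genes. They were COL12A1, a fibril-associated chain (48.8 to 1579, at least 17.2-fold), COL3A1 (128 to 538) and COL1A1 (310.3 to 687). COL1A2, the partner chain of COL1A1, lay at -0.20. Enzymes that process collagen were higher in 7 of 17 cases. PLOD2, a lysyl hydroxylase that sets cross-links, read 296 in the control and 3252 in the clone, 10.97-fold higher, LOX, the lysyl oxidase gene, read 1350.2 in the control and 4482 in the clone, and SERPINH1, the collagen chaperone, 751 in the control and 2190.0 in the clone. P3H2, a prolyl hydroxylase that acts on basement membrane collagen, went the other way, with 1559 in the control and 152 in the clone.

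Proteases and inhibitors of the matrix were higher in 10 of 25 cases and lower in 2. MMP2, the gelatinase A gene, read 287 in the control and 3105 in the clone, 10.8-fold higher, and its inhibitor genes differed in direction, with TIMP1 at 1664 in the control and 7023 in the clone and TIMP3 at 4159 in the control and 1357 in the clone. MMP7, the matrilysin gene, read 26.6 in the control and 436 in the clone and differed by 0.29 in ethanol. The coagulation inhibitor genes TFPI (42.4 to 1077) and TFPI2 (33.6 to 1079.9) were at least 11.7-fold and at least 11.7-fold higher. PAPPA, a protease gene that cleaves IGF binding proteins and is among the 20 furthest above, read 62.5 in the control and 2059 in the clone, at least 22.4-fold higher.

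Of the factors that drive mesenchymal transition 7 of 24 were higher and 1 was lower, with a median of -0.23, or 0.77 with the floor at the 75th percentile. ZEB2 read 71.3 in the control and 395 in the clone, at least 4.3-fold higher against the floor, and ZEB1 69.7 in the control and 229 in the clone, at least 2.49-fold. TWIST1 read 508 in the control and 1191 in the clone, a log2 difference of 1.23, and in ethanol its log2 difference was 2.74. SNAI2, the Slug gene, was bright in both arrays (4161 to 7119.9) and SNAI1, the Snail gene, lay at -0.30. TBX18 (383 to 2291), RUNX2 (221 to 752) and ETV1 (27.3 to 275) were also higher, and SOX9 was lower (757 to 292).

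Actin contractile genes were higher in 12 of 23 cases and lower in none, with a median of 1.09, or 0.97 after centring by span. ACTA2, the smooth muscle actin gene, read 154 in the control and 606 in the clone, 3.93-fold higher. TPM1, a tropomyosin gene, read 183 in the control and 799.9 in the clone, ACTN1, an actinin of focal adhesions, 1540.0 in the control and 5075 in the clone, and TNS3, a tensin, 168 in the control and 1098 in the clone. In ethanol the list had 4 of 22 higher, against 2.63% of all genes there, and a median of 0.04. TPM1 differed there by 0.29, ACTN1 by -0.13 and MYH9, the non-muscle myosin gene, by 0.05. ACTB, the cytoplasmic actin gene, was bright in both arrays (9017 to 14008) and within 2-fold. TAGLN, MYH11 and LMOD1, markers of mature smooth muscle, were under the floor in both arrays.

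TGF-beta pathway genes were higher in 7 of 26 cases and lower in 2, with a median of 0.54, of 0.89 with the floor at the 75th percentile, and of 0.35 after centring by span. The ligands differed in direction: TGFB2 read 38.9 in the control and 1329 in the clone, at least 14.4-fold higher, and TGFB1 read 2405 in the control and 688 in the clone, 3.5-fold lower. TGFBR2, the receptor that binds ligand first, read 263 in the control and 2274 in the clone, 8.65-fold higher, and LTBP2, of the latent complex family, 287 in the control and 2163 in the clone. SMAD7, the inhibitory SMAD induced by the pathway, was lower (265 to 130.3). FSTL1, a secreted follistatin-like protein, was the furthest above of all genes once dim values were raised to the floor. It read 94.1 in the control and 3166 in the clone, 33.6-fold higher. In the BMP branch 5 of 14 genes were lower and 1 higher, among them the target genes ID2 (416 to 56.1) and ID3 (569.9 to 167) and the pseudoreceptor BAMBI (269.8 to 55.7), while ID1 lay at -0.15 and BMPR2, a receptor, was higher (200.1 to 746).

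Genes of YAP and TAZ, co-activators that respond to tension, and their targets were higher in 9 of 26 cases and lower in 2, with a median of 0.67, or 0.48 after centring by span. YAP1 itself differed by -0.15 and WWTR1, the TAZ gene, by -0.09. TEAD1, the DNA-binding partner, read 376 in the control and 845 in the clone. Targets other than the CCN genes included AXL, a receptor kinase (261 to 1496), CRIM1 (474 to 1483) and AMOTL2 (269.8 to 663). The core site of TEAD factors, GGAATG on either strand, was found in 11.9% of all promoters and 9.19% of those of genes past the floor. It was in 10.03% of those of higher genes and 9.67% of those of lower genes, and in 5 of 10 promoters of higher matrix glycoprotein genes. That matrix list holds CCN2 and THBS1, and 10 of its 17 higher genes had a promoter among those searched. The site was not counted over the YAP and TAZ list itself. CCN2 and THBS1 are shown as members that hold it, at chr6:131951373-131951622 on the minus strand and chr15:39580829-39581078 on the plus strand, with GGAATG in capitals.
CCN2: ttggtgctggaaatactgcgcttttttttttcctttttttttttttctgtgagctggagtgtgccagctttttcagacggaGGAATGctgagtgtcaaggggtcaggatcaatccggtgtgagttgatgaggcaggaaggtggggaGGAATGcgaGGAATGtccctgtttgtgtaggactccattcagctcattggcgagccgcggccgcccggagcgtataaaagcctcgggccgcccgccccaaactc
THBS1: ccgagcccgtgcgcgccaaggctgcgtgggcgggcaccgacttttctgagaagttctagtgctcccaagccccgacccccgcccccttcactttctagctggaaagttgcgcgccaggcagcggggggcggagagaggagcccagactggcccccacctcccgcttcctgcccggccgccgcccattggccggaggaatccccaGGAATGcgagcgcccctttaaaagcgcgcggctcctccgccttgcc
CCN2 held 3 matches, the nearest from -95 to -90, and THBS1 held 1, from -46 to -41.

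**Figure D3:**
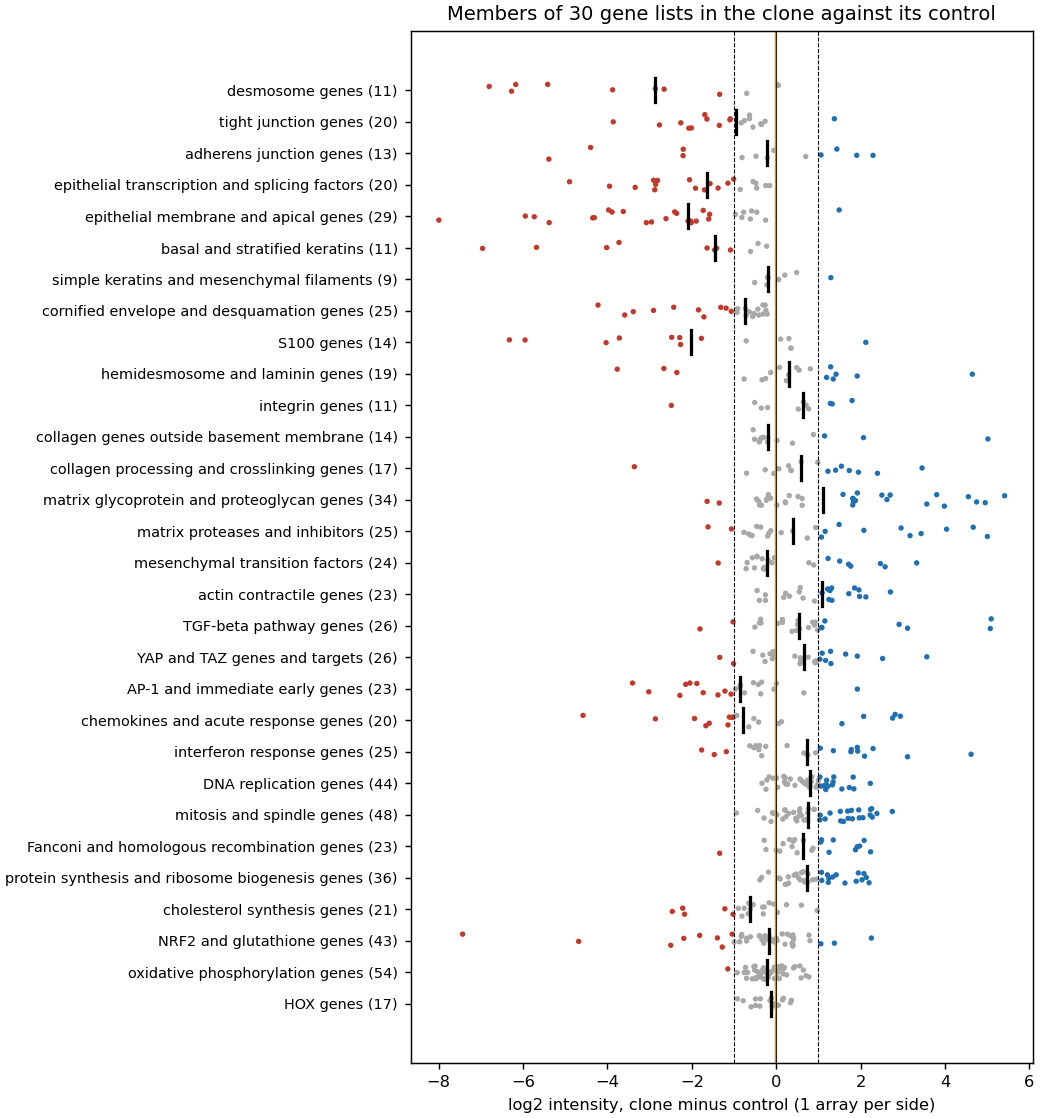
Log2 difference of every member past the floor (1 point per gene, 1 array per side) in 30 of the 76 gene lists, with the number of genes in brackets, the list median as a black bar, 2-fold as dashed lines and the median of all genes in orange. Junction, membrane and keratin lists extend to the left, with the desmosome median at -2.86, and matrix, contractile and division lists lie to the right, with the replication median at 0.80.

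Wnt pathway genes were level as a group, with 4 of 33 (12.1%) higher and 3 (9.09%) lower, against 14.7% and 5.83% of all genes. Their median was -0.16, but secreted members of the list held some of the largest differences. WNT5A, a ligand of the non-canonical branch, read 26.8 in the control and 1041 in the clone, at least 11.3-fold higher, and differed by 0.68 in ethanol. DKK1, a secreted inhibitor of the canonical branch, read 118 in the control and 2189 in the clone, 18.5-fold higher, and SFRP1, another inhibitor, was lower (317 to 81.5). AXIN2, a target used to read canonical activity, lay at -0.39. In the Notch pathway the target genes HES1 (2331 to 269), HEY1 (196 to 79.5) and NRARP (633 to 145) and the ligand JAG1 (1882 to 502) were lower. NOTCH2 (357 to 979.8), MAML2 (139 to 662), LFNG (80.2 to 241), RBPJ (215 to 439) and DTX3L (69.3 to 349) were higher. HES1 differed by -0.37 in ethanol.

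EGF family genes were lower in 4 of 11 cases and higher in none. HBEGF, a ligand, read 1617 in the control and 160.0 in the clone, 10.1-fold lower, TGFA, another ligand, 389 in the control and 180.0 in the clone, and the receptor genes EGFR and ERBB3 1499 to 731 and 271 to 67.3. Feedback genes of the ERK cascade divided: DUSP6 (50.3 to 254), SPRY2 (128 to 432), SPRED1 (48.7 to 232), SPRED2 (104 to 314) and ETV5 (45.8 to 297) were higher, and DUSP5 (957 to 227), DUSP1 and IER3 (3904 to 973) lower. Among other growth factor genes 12 of 29 were higher and 2 lower. ANGPT1, the angiopoietin-1 gene, read 39.3 in the control and 1879 in the clone, at least 20.4-fold higher, PDGFC 109 in the control and 1232 in the clone and FGF2 63.0 in the control and 521 in the clone. MET, the hepatocyte growth factor receptor gene, read 561 in the control and 1367 in the clone and differed by -0.47 in ethanol, and DDR1, a collagen receptor of epithelia, was lower (1899 to 520.5). IGF binding protein genes IGFBP4 (803 to 5507), IGFBP3 (229 to 1155) and IGFBP2 (507 to 2004) were higher, 3 of 6.

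Immediate early genes, which respond within minutes to serum or stress, were lower in the clone in 10 of 23 cases and higher in 1, with a median of -0.87. DUSP1, a phosphatase of stress kinases, read 10057 in the control and 2438 in the clone, 4.13-fold lower. The AP-1 subunit genes JUN (1698 to 209), FOS (755 to 171) and JUND (1338 to 363), the stress factor ATF3 (428 to 40.5) and the mRNA decay gene ZFP36 (2126 to 437) were lower with it. Of 21 heat shock genes 3 (14.3%) were lower and 2 (9.52%) higher. Of 28 genes of the integrated stress and unfolded protein responses 4 (14.3%) were lower and 3 (10.7%) higher. Over all genes 5.83% were lower and 14.7% higher. DNAJB1, a heat-inducible co-chaperone, read 4903 in the control and 673 in the clone, 7.28-fold lower, CRYAB, a small heat shock protein, 5283 in the control and 946 in the clone, and PPP1R15A, which ends the integrated stress response, 1868 in the control and 266 in the clone. EGR1 lay at 0.66 and MYC at -0.06. In ethanol against untreated, DUSP1, DNAJB1, CRYAB and FOS differed by 0.67, -0.17, 0.11 and -0.10.

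**Figure D4:**
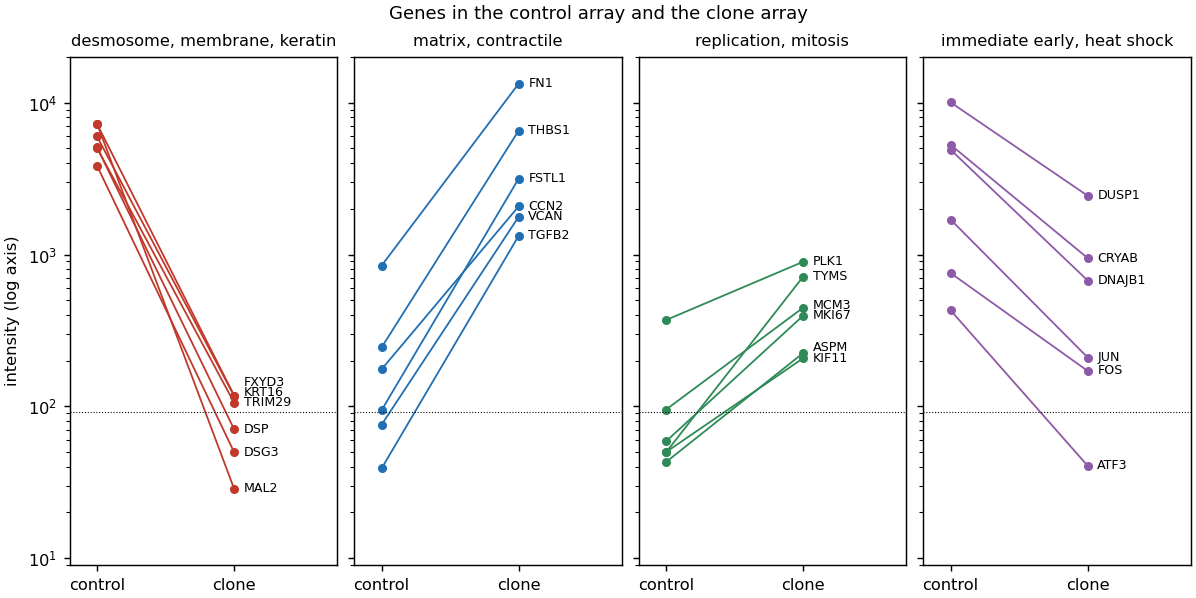
Intensity (log axis) of 24 named genes in the control and the clone array, 1 line per gene, with the floor of 92.0 dotted. Lines go down for epithelial genes (MAL2 from 7279 to 28.5) and immediate early genes (DUSP1 from 10057 to 2438), and up for matrix genes (FN1 from 844 to 13374) and division genes (MKI67 from 58.8 to 396).

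Cytokine receptors of the IL6 and IL7 families were among the furthest above. IL7R, the interleukin-7 receptor gene, read 23.7 in the control and 2185 in the clone, at least 23.7-fold higher. OSMR, the oncostatin M receptor, read 558 in the control and 5505 in the clone, 9.86-fold higher, but differed by only 0.02 in ethanol, and its partners LIFR (591 to 2386) and IL6ST, the shared gp130 chain (256 to 1315), were higher with it. Over the list, 5 of 15 genes were higher and 1 lower. In the interleukin-1 family the receptor gene IL1R1 read 76.8 in the control and 804 in the clone, at least 8.74-fold higher, while IL18 (929 to 118), IL1A (398 to 72.3) and the antagonist IL1RN (241 to 33.9) were lower. Chemokine and acute response genes were lower in 9 of 20 cases and higher in 5. LCN2, the lipocalin-2 gene, read 2546 in the control and 107 in the clone, 23.9-fold lower, SLPI, an antiprotease gene, 7312 in the control and 1006 in the clone, and CXCL1 and CSF1 were higher, at 122 to 858 and 133 to 897.

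Interferon response genes were higher in 10 of 25 cases and lower in 3, with a median of 0.73, or 0.039 over all measured members with no floor. IFI44L read 19.9 in the control and 488 in the clone, at least 5.3-fold higher, SAMD9L 31.7 in the control and 274 in the clone and IFI6 346 in the control and 1178 in the clone. The OAS genes of RNA sensing went the other way, with OAS1 at 281 to 82.6 and OAS3 at 100.3 to 44.2, and ISG15, a broad marker of interferon, lay at -0.25. MX1, IFIT1 and RSAD2 were under the floor in both arrays. Of the complement genes C3 was bright in both, with 4846 in the control and 10988 in the clone, and CFB (241 to 856) and C1S (70.8 to 282) were higher, while CD55, which protects cells from complement, was lower (2609.9 to 790.4).

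DNA replication genes were higher in 15 of 44 cases and lower in none, against 14.7% higher among all genes, with a median of 0.80. Centred by span, 10 were higher and the median was 0.62. All 44 reached the floor in the clone but only 32 in the control, so the others entered through the clone array alone. With dim values raised to the floor the median was 0.70. MCM3, a subunit of the replicative helicase, read 95.2 in the control and 447 in the clone, 4.69-fold higher, MCM4 264 in the control and 673 in the clone, and PCNA, the sliding clamp gene, 292 in the control and 664 in the clone. CDC6, which loads the helicase, read 35.6 in the control and 126 in the clone, and GINS1 and TOPBP1, which take part in firing origins, read 84.7 to 281 and 232 to 682. Enzymes of nucleotide supply were higher in 9 of 31 cases and lower in none. TYMS, the thymidylate synthase gene, read 49.7 in the control and 716 in the clone, at least 7.78-fold higher, RRM2, a ribonucleotide reductase subunit, 110.1 in the control and 385 in the clone, and TK1, the thymidine kinase gene, 144 in the control and 401 in the clone. In ethanol the replication list had none of 49 higher, against 2.63% of all genes there, and TYMS differed by 1.03. The list median in ethanol was 0.00, which the many equal values of those arrays, described below, limit.

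Mitosis and spindle genes were higher in 20 of 48 cases and lower in none, with a median of 0.75 (0.63 after centring by span). MKI67, the gene of the Ki-67 proliferation marker, read 58.8 in the control and 396 in the clone, at least 4.3-fold higher. KIF11, a motor that separates spindle poles, read 49.9 in the control and 207 in the clone, PLK1, a mitotic kinase, 370.2 in the control and 896 in the clone, and ASPM, of the spindle poles, 42.9 in the control and 224 in the clone. CENPF (111 to 524) and NCAPG, a condensin subunit (56.5 to 264), were higher, but CDC20 and BIRC5 lay at 0.02 and -0.02 and UBE2C at -0.44. Cyclins and inhibitors moved less, with 5 of 32 (15.6%) higher, close to the 14.7% of all genes, and 1 lower. TFDP1, the partner of E2F factors, read 752 in the control and 2912 in the clone, 3.87-fold higher, CCNE2 73.9 in the control and 214 in the clone, and CDKN1A, the p21 gene, differed by -0.64. The number of dividing cells and the RNA of each gene per cell cannot be told apart in these bulk samples, which holds for every level given here.

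Promoters of these groups carry known cell cycle sites. The E2F core, TTCCCGC or TTGGCGC on either strand, was found in 7.95% of all promoters, 12.5% of those of genes past the floor, 13.4% of those of genes higher in the clone and in 6 of 14 promoters of higher replication genes. The CHR element TTTGAA, bound by the complex that switches mitotic genes, was found in 13.6% of all promoters, 8.10% of those of genes past the floor, 10.6% of those of higher genes and in 10 of 19 of higher mitosis genes, but in none of the 14 replication promoters. CCAAT, the NF-Y box, was in 33.0% of all promoters, 34.3% of those of genes past the floor and in 14 of those 19. MCM3 and TYMS are shown for the E2F core, at chr6:52284743-52284992 on the minus strand and chr18:657403-657652 on the plus strand, and MKI67 and KIF11 for the CHR, at chr10:128126424-128126673 on the minus strand and chr10:92592880-92593129 on the plus strand. The site is in capitals, as written above or as its reverse complement, GCGGGAA for E2F and TTCAAA for the CHR.
MCM3: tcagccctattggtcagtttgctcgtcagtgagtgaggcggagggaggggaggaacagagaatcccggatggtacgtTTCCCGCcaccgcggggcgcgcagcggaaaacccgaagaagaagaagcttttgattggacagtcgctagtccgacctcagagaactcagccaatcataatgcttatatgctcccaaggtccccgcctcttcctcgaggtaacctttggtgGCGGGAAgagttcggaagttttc
TYMS: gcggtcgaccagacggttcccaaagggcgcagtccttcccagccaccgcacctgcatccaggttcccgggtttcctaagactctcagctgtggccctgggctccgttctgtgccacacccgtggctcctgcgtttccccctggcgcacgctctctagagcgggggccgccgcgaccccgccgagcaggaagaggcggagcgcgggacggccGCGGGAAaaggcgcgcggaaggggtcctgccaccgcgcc
MKI67: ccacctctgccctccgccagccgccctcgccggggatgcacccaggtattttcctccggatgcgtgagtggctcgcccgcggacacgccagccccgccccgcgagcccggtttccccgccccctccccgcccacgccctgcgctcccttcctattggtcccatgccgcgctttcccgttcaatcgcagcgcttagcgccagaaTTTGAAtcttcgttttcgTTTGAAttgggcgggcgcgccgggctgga
KIF11: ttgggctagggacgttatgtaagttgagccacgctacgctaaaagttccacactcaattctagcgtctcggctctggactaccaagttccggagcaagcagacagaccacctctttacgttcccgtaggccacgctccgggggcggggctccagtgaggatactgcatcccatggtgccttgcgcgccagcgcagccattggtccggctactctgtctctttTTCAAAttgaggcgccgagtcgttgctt
MCM3 held 2 E2F matches and TYMS 1. The CHR matches of MKI67, from -47 to -42 and from -29 to -24, and of KIF11, from -28 to -23, lay close to the start. The genes were picked for holding the site, and a match says nothing of binding.

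Genes of DNA repair are set beside all genes, of which 14.7% were higher and 5.83% lower. In the Fanconi and recombination list 9 of 23 read higher and 1 read lower, with XRCC2 at 41.9 to 197, FANCI at 101 to 396, the checkpoint kinase genes ATR at 71.1 to 269 and ATM at 119 to 438, and FANCE lower at 908 to 359. Only 14 genes of this list reached the floor in the control and 22 in the clone, so many entered through the clone array alone. The list median was 0.64, or 0.31 with dim values raised to the floor. Of 30 other repair genes 9 were higher and none lower, among them PRKDC, the DNA-dependent kinase (702 to 2058), and the mismatch genes PMS1 (148 to 465) and MLH3 (66.2 to 219.6). All 30 reached the floor in the clone and 24 in the control. Targets of p53 divided, 5 of 27 higher and 8 lower. SFN, the 14-3-3 sigma gene of epithelia, read 6367 in the control and 386 in the clone, 16.5-fold lower, and MDM2, the p53 ligase gene (1261 to 3308), FAS, a death receptor gene (142 to 565), and TP53INP1 (351 to 1339) were higher.

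Genes of cell death on detachment did not move one way. BCL2L11, which encodes BIM, a trigger of anoikis, was lower (447 to 115), as were TNFSF10, the TRAIL gene (488 to 54.2), BAK1 (854 to 309.9) and the survival gene MCL1 (4812 to 1908). BNIP3 (627 to 2962), BNIP3L (686 to 2748), CASP8 (118 to 347) and its inhibitor CFLAR (138 to 385) were higher. BCL2 lay at 0.09 and BMF, another detachment sensor, at -0.31. Over the list 6 of 29 (20.7%) were higher and 4 (13.8%) lower, against 14.7% and 5.83% of all genes.

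Ribosome biogenesis and translation genes were higher in 14 of 36 cases and lower in none, with a median of 0.72 that was the same after centring by span. NOP58, a core protein of box C/D particles that guide RNA methylation, read 146 in the control and 673 in the clone, 4.6-fold higher. POLR1A, the largest subunit gene of RNA polymerase I, read 148 in the control and 624 in the clone, and UTP4, of the small subunit processome, 453 in the control and 1990.0 in the clone. FBL, the methyltransferase of the same particles as NOP58, lay at -0.35, and the small nucleolar RNAs were lower, as given above. In ethanol none of 36 genes of this list was higher, against 2.63% of all genes there.

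Lipid genes divided by pathway. Cholesterol synthesis genes were lower in 5 of 21 cases and higher in none, with a median of -0.61. MSMO1, a sterol oxidase gene, read 6112 in the control and 1109 in the clone, 5.51-fold lower, HMGCS1, which makes the precursor of mevalonate, 2579 in the control and 555 in the clone, and INSIG1, which holds the sterol sensor in the endoplasmic reticulum, 2049 in the control and 455 in the clone. In fatty acid synthesis FASN (1909 to 885) and SCD (4609 to 1924) were lower, while the desaturase genes FADS1 (213 to 1111), FADS2 (141 to 747) and FADS3 (251 to 746), neighbours on chromosome 11, were higher. Fatty acid uptake genes were higher in 5 of 14 cases: FABP4, a fatty acid carrier of adipocytes, read 23.1 in the control and 962 in the clone, at least 10.5-fold higher, and CD36, a fatty acid translocase gene, read 473 in the control and 4479 in the clone, 9.47-fold higher. PPARG, the receptor that controls both, lay at 0.33.

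Of the genes that handle ethanol and acetaldehyde 3 of 19 (15.8%) were higher and 2 (10.5%) lower, against 14.7% and 5.83% of all genes. ALDH1B1, a mitochondrial aldehyde dehydrogenase, read 130.2 in the control and 643 in the clone, 4.93-fold higher, and ADH5, the glutathione-dependent alcohol dehydrogenase, 259.9 in the control and 666 in the clone. ALDH2, CYP2E1 and the classical alcohol dehydrogenase genes ADH1A, ADH1B and ADH1C were under the floor in both arrays. Targets of NRF2, the oxidant sensor, and glutathione genes were lower in 8 of 43 cases and higher in 3. AKR1B10, an aldo-keto reductase gene, read 3013 in the control and 17.4 in the clone, at least 32.7-fold lower, GPX2, a glutathione peroxidase of epithelia, 1381 in the control and 53.8 in the clone, and GSTP1 8641 in the control and 4193 in the clone, but HMOX1 and NQO1 lay at -0.17 and -0.14. CYP1A1, the main target of the aryl hydrocarbon receptor, read 1675 in the control and 44.9 in the clone, at least 18.2-fold lower, while CYP1B1 lay at 0.10.

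Energy genes were mostly level. Oxidative phosphorylation had 1 of 54 genes lower and none higher, with a median of -0.22 and -0.08 after centring by span. Glycolysis and hypoxia genes were higher in 7 of 32 cases (21.9%) and lower in 2 (6.25%), against 14.7% and 5.83% of all genes. LDHA read 3168 in the control and 7259.8 in the clone, and PGK1 read 891 in the control and 2458 in the clone. PDK1, which holds pyruvate from mitochondria, read 141 in the control and 541 in the clone. The 2 lower genes are hypoxia targets too: ADM, the adrenomedullin gene, read 3660.4 in the control and 382 in the clone, 9.58-fold lower, and SLC2A1, the glucose transporter gene, 5395 in the control and 934 in the clone. Amino acid transporter genes included both the pair SLC7A5 (4669 to 1359) and SLC3A2 (2389.5 to 817), which were lower, and SLC38A1 (1721 to 3689.5), which was higher, with 6 of 20 higher and 4 lower. MAT2A, which makes the methyl donor S-adenosylmethionine and is among the 20 furthest above, read 254 in the control and 3030.3 in the clone, 11.9-fold higher, and differed by -0.22 in ethanol.

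Positional and germline identity genes were level. Of 17 HOX genes past the floor none was higher or lower, and the furthest was HOXC10 at -0.92. Of 20 measured cancer testis genes 5 reached the floor and none differed by 2-fold. Guidance genes were lower in 8 of 34 cases (23.5%) and higher in 6 (17.6%), against 5.83% and 14.7% of all genes. The ephrin receptor gene EPHB3 (1388 to 108) and the ligand gene EFNA3 (1733 to 156) were lower. NRP1 (105 to 633), PLXND1 (149.9 to 1181) and SEMA3C (567 to 2835), which encode a receptor complex and its ligand, were higher. PCDH18, a protocadherin gene, read 21.6 in the control and 2282 in the clone, at least 24.8-fold higher. Imprinted genes included PEG10 (604 to 3372) and SGCE (425 to 1618), which lie side by side, both higher.

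Markers of cells other than breast epithelium were checked in 5 lists. Of the fibroblast markers 6 of 9 past the floor were higher, against 14.7% of all genes. Their median was 1.88, or 1.15 with dim values raised to the floor. The summed intensity over the 14 measured markers was 1333 in the control and 3351 in the clone. FAP (32.9 to 287), DPT (70.6 to 486), COL1A1, COL3A1 and S100A4 were among the higher ones. PDGFRA, THY1, LUM, POSTN and COL6A3 of the same list were under the floor in both arrays. PTPRC, CD3E and CSF1R for leukocytes and PECAM1, VWF and CDH5 for endothelium were under the floor in both arrays too, but 4 of 12 endothelial genes were past it and KDR, a receptor gene for vascular growth factor, was higher (69.3 to 275). Leukocyte markers summed to 2343 and 2224 and endothelial ones to 1265 and 1219.8. The adipocyte list had 7 of 10 genes past the floor, FABP4 and PLIN4 among them higher, with ADIPOQ and LEP under the floor. The neuronal and neural crest list had 9 of 15 past the floor, of which MAP2 (59.3 to 550.3), ENO2 (a log2 difference of 1.38) and L1CAM (126 to 268) were higher and the neurofilament genes NEFL (471 to 179.7) and NEFM (136 to 61.3) lower. The part of other cells in the result was not tested.

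Genes with large differences sat next to each other in several places. Taking the 12251 genes in RefSeq order, 22 runs of at least 4 consecutive genes past 2-fold in 1 direction were found, 18 higher and 4 lower. With no floor 6 such runs were found, with dim values raised to the floor 9, with the floor set on the mean of both arrays 13, and centred on all probes 37, so the count rests on these choices. The longest was PGLYRP3, PGLYRP4, S100A9, S100A12, S100A8 and S100A7 on chromosome 1, all lower, in the epidermal differentiation region, where the lowest median over 25 consecutive genes was -1.07. The desmosomal cadherins DSC3, DSC2, DSG3 and DSG2 on chromosome 18 formed another lower run. Higher runs held FEN1 with FADS1, FADS2 and FADS3 on chromosome 11, CFLAR with CASP8 on chromosome 2 and, on chromosome 10, STAMBPL1, ACTA2, FAS, LIPA and IFIT5, in the stretch with the highest median, 1.32. Chromosome 13 had 67 of 203 genes higher (33.0%) and chromosome 19 had 45 of 942 (4.78%), against 14.7% of all genes. These were the highest and the lowest share of any chromosome. The shares were not centred by gene span, and the part of span in them was not tested.

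Most genes past 2-fold in ethanol were past 2-fold the same way in the clone, but most of the clone's genes did not reach 2-fold in ethanol. Among 10500 genes past the floor in both tables, 229 were higher in both, which is 82.1% of the 279 higher in ethanol and 13.7% of the 1670 higher in the clone. Of those lower, 196 were shared, 80.0% of 245 in ethanol and 30.2% of 648 in the clone. Over all genes past the floor of each table, 14.7% were higher and 5.83% lower in the clone, and 2.63% and 2.44% in ethanol. The median ethanol difference was 0.08 over the genes higher in the clone and -0.48 over those lower. The clone and ethanol pairs have separate controls. Many values in the ethanol table were exactly equal, since 3391 of 11058 genes past its floor and also in the clone table (30.7%) read the same in ethanol as in untreated cells, against 24 of 12256 (0.196%) in this pair. This limits what a difference of 0.00 in ethanol can say, and its cause was not tested. CALB1, a calcium-binding protein gene, read 1650.0 in the control and 25.0 in the clone here and 3407 and 109 in the untreated and ethanol arrays. Of 1394 genes higher and 583 lower in the clone with dim values at the floor, 723 (51.9%) and 183 (31.4%) differed by at most 0.2 in ethanol, against 71.5% of all 10500 genes. Of these 723 and 183 genes, 27.1% and 28.4% read exactly the same there, against 42.3% of all genes within that limit. The lower ones included H2BC21, a histone gene (3923 to 193), TNFSF9, a costimulatory ligand gene (2744 to 385), and MSMO1, and the higher ones OSMR, PEAK1 (98.7 to 1050.2), SH3KBP1 (568 to 4911, whose other probe differed by only 0.50) and the splicing factor SRSF1 (153 to 1255). These were named after their values were seen.

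**Figure D5:**
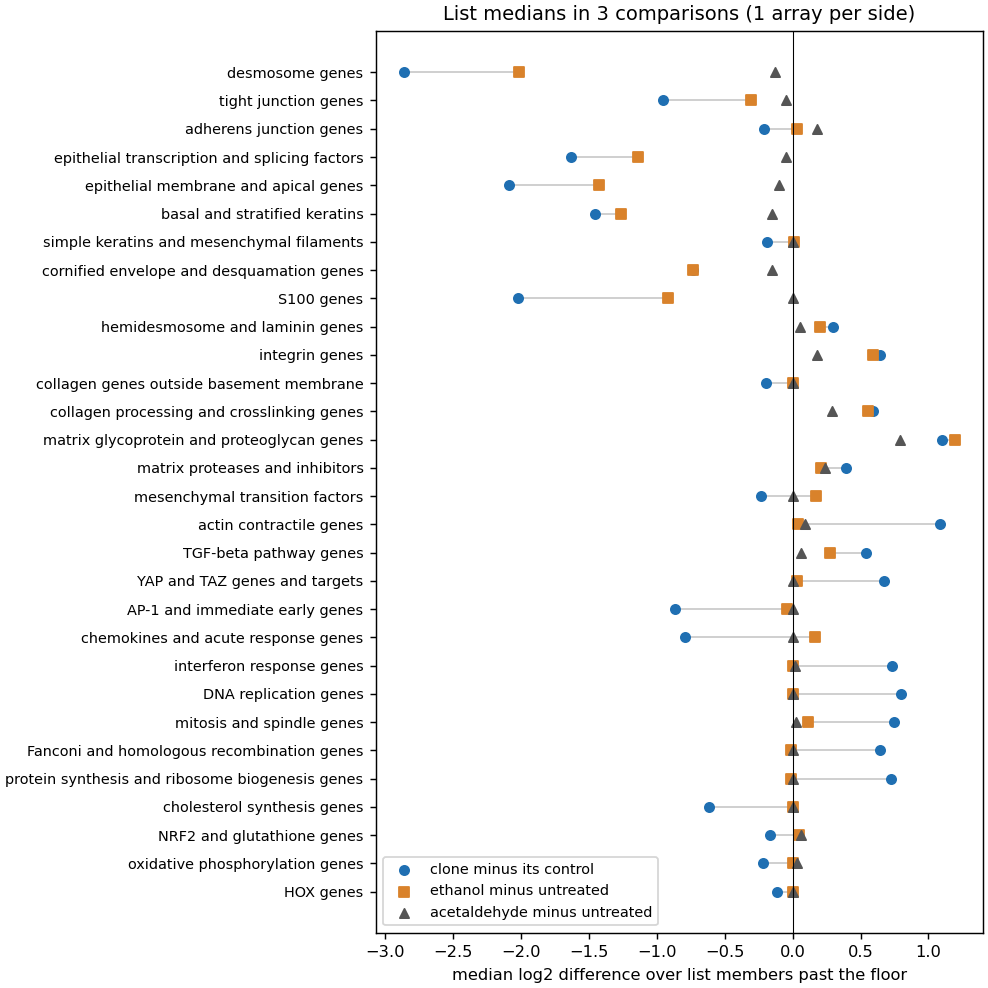
Median log2 difference over the members past the floor of 30 gene lists in the clone (circles), ethanol (squares) and acetaldehyde (triangles), each against its control, 1 array per side; ethanol and acetaldehyde share their untreated array. Junction, membrane and keratin lists are low in the clone and in ethanol (desmosome genes at -2.86 and -2.02), and for mitosis genes the clone and ethanol medians are 0.75 and 0.11.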

How the data were processed

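Each of the 5 samples was read on 1 Affymetrix Gene ST array. The deposited tables hold 1 intensity per probe on a linear scale, made with RMA by the authors per the submitters' processing notes, and the version, background step and annotation are not given in the sources used here. This method forces the arrays of a table to nearly 1 distribution, so a shift shared by most genes cannot be seen. The clone pair and the other 3 arrays were in separate tables, and the pair is of a different array design, so levels were compared only within a table. Of 33297 probes for the clone pair, 19460 had 1 gene symbol, 1754 several and 12083 none, and 27 symbols were updated through RefSeq gene identifiers (GRCh38.p14). For 788 genes the brightest of several probes was kept.

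From the deposited intensities a log2 difference was computed with Python 3.11.15, numpy 2.4.6 and pandas 2.3.3. Array number, 1 per condition, limits the precision, and no test was made. Counts used 2-fold, and the floor was the table median. The same steps recovered folds added, with small random noise, to a copy of the control array. That checks the arithmetic only and says nothing of the error of these arrays. Gene span and promoters came from RefSeq, with motifs searched in 250 bases upstream of 27305 genes, 9735 of them past the floor. The members and the 76 lists (1982 genes, 1802 measured, 1436 past the floor) were chosen with earlier results of these data known. Genes were named if among the 20 furthest each way with dim values at the floor, among the 4 furthest each way in a list, partners of such genes in a sentence, in a run of neighbours, opposite in ethanol, or nearest a threshold; level members and other exceptions were named after their values were seen. Alternatives changed the floor, centring, normalisation, probe choice, fold and span.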

Additional observations from a re-analysis of the deposited data

Results flagged for a closer look

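Among the genes past both floors, 6 were past 2-fold in opposite directions in the clone and in ethanol, each pair against its own control, and the difference between the pairs was not tested. AKR1C1, an aldo-keto reductase gene, differed by -2.50 in the clone and 1.30 in ethanol. Its other probe gave -0.65 in the clone, so its probes disagree in size. AKR1C2, a close copy of it, differed by -2.19 and 1.24, and the probes of such copies can share RNA. INSIG1, the sterol synthesis regulator described above, differed by -2.172 and 1.30. ALDH1L2, a mitochondrial folate enzyme gene, differed by 1.074 and -1.069. SAMD9, an interferon-inducible gene, differed by 1.92 and -1.074. XDH, the xanthine dehydrogenase gene, differed by 1.99, at least 2.6-fold against the floor, and -1.80.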

How the results depend on the processing

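With 1 array per side no replicate could be left out. No paired analysis was possible because each group is 1 array. A limit of 1.5-fold gave 3142 and 1866 genes above and below, and 3-fold gave 757 and 309, in place of 1801 and 715. Under the other settings (no floor, a floor at the 75th percentile or on the mean of both arrays, dim values at the floor, lowess, a second quantile normalisation, mean of probes, genes with 1 probe, centring on all probes or by span) the counts stayed within 1.5 times. The median over all probes was -0.17, and centring on it moved the counts to 2259 and 544, or 80.6% higher against 71.6%. The median of the IL6 and IL7 families, 0.67, turned to -0.039 with no floor and -0.28 with a floor at the 75th percentile, and that of protocadherins outside the clusters, 2.08, to -0.38 with no floor. Of 1824 list counts under alternatives and as reported, 217 moved by over 1.5 times, of 912 list medians 57 moved besides those reversed, and of 3377 values of named genes 74 moved. SMAD7, TGFA and EGFR did not reach 2-fold when centred on all probes, and CDC6, OAS3 and IFIT5 did not with dim values at the floor. Values under the floor are limited by the array background, and 1 array per condition gives no measure of error.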

Other observations

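Some RNA processing families, grouped by the start of the gene symbol and picked after the values were seen, differed in the clone. Of all genes 14.7% were higher and 5.83% lower. Others had fewer genes past 2-fold: of 11 PRPF genes 2 were higher, of 10 SF genes 1, of 10 EXOSC genes 1 and of 11 LSM genes none, and none of these was lower. Of 11 SRSF genes past the floor, which encode splicing factors, 7 were higher, with a median of 1.51. Of 10 UTP genes, which assemble the small ribosomal subunit, 6 were higher, with a median of 1.09. Ribosomal protein genes were level, with medians of -0.11 over 47 RPL and -0.10 over 35 RPS genes. Of 14 IFT genes, which carry cargo along cilia, 6 were higher, with a median of 0.83. Of 12 SCARNA genes, which guide modification of spliceosomal RNA, 5 were lower, and 14 of 59 SNORD genes were. None of these values was tested.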
